A study of Homo sapiens with 6 samples.

Results

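Integrins are the receptors with which a cell holds on to the matrix around it, and each is a pair of 1 alpha and 1 beta chain that spans the plasma membrane. The alpha chain largely sets which ligand is bound, and the tail of the beta chain is where talin and kindlin attach and link the receptor to actin. Epithelial cells, the origin of thyroid carcinoma, rest on laminin through the ITGA3 and ITGB1 pair and through the ITGA6 and ITGB4 pair of the hemidesmosome, and moving cells use fibronectin and collagen receptors as well. The 10 genes described here encode the alpha chains ITGA2 (collagen receptor), ITGA3 and ITGA6 (laminin receptors), ITGA5 (fibronectin receptor) and ITGAV (partner of several beta chains for ligands with the RGD motif), and the beta chains ITGB1, ITGB3, ITGB4, ITGB5 and ITGB8. They were chosen by gene name, with earlier results of these data known, and they are 10 of the 32985 genes in the deposited table.

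RNA-seq was performed on 8505C, an established human anaplastic thyroid cancer (ATC) cell line, with 3 libraries from cells given a control siRNA (siCtrl, genotype labelled WT) and 3 from cells given 1 siRNA against NUF2 (siNUF2, labelled NUF2 knockdown), all at 24 h and with no other agent named. NUF2 is a subunit of the NDC80 complex at the kinetochore, and the study asked which genes change when it is knocked down. The labels number the libraries 1 to 3 in each group but do not say what a number stands for or whether libraries came from separate cultures, so p-values measure the spread between these libraries only. Libraries held 61257859 to 69755291 counts in total, of which 0.220% to 0.252% fell on the 10 integrin genes.

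Levels are given as FPKM, the fragments of a gene relative to the length of its transcript and the size of the library, as the authors deposited it. NUF2 itself had 14.8, 14.5 and 12.2 FPKM under siCtrl and 1.53, 2.05 and 1.56 FPKM under siNUF2, so the knockdown was present in every library of its label (log2 fold change -2.99, standard error 0.17, adjusted p = 5.10e-04 from edgeR). The cell line was checked against marker genes. Of the thyroid genes, NKX2-1 was between 14.6 and 21.5 FPKM and PAX8 between 0.379 and 0.774, whereas TG and SLC5A5 did not exceed 0.0143. The keratin KRT18 was between 137 and 205 FPKM and the mesenchymal filament VIM between 452 and 521, while the epithelial adhesion genes EPCAM and CDH1 stayed at or below 0.243. The leukocyte integrin chain ITGB2 was at or below 0.435 FPKM and the platelet chain ITGA2B at or below 0.206. The 4 leukocyte marker genes, ITGB2 among them, summed to between 3.73 and 7.84 FPKM under siCtrl. Under siNUF2 they summed to between 4.95 and 6.4 FPKM, and 1 of the 4, not ITGB2, reached a mean of 1 FPKM.

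A siRNA can pair with mRNAs other than its target through the seed of its antisense strand, positions 2 to 8. The 3′ UTRs of the integrin genes were therefore read for the 7 bases TATGGAA, the reverse complement of the seed in the antisense sequence that the study's methods give for siNUF2, and for the 6 bases ATGGAA inside it. The longest 3′ UTR of each gene in GENCODE release 44 (GRCh38, the build of the deposited file) was searched on the strand of the mRNA. Of the 10 integrin genes, 1 held TATGGAA, against 16.1% of the 10173 tested genes with a 3′ UTR, and 3 held ATGGAA, against 46.2%. The tested genes had a mean of at least 1 FPKM. ITGB8, the 1 integrin gene with TATGGAA, and ITGB3, 1 of the 3 with ATGGAA, were below that level. The median length of these 3′ UTRs was 2200.5 bases for the integrin genes and 1503 bases for the tested genes. The matches are shown because they are the stretches of these mRNAs that could pair with the siRNA seed. The stretch of ITGB8 shown, chr7:20412473-20412497 (plus strand), holds its 7-base match, which starts at base 2485 of a 3′ UTR of 5757 bases that has 3 further matches of 6 bases only. The stretch of ITGB1, chr10:32908022-32908045 (minus strand), holds a 6-base match that starts at base 293 of 2010. The stretch of ITGB3, chr17:47311320-47311343 (plus strand), holds one that starts at base 1125 of 3539. All are in the last exon of the transcript, and capitals mark the matched bases.
ITGB8: aaatttccgTATGGAAtgaattatc
ITGB1: agctattcaATGGAAagctgcttc
ITGB3: agtgccaggATGGAAtgatgggtc

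For ITGA2, ITGA3, ITGA5, ITGA6, ITGAV, ITGB4 (whose longest 3′ UTR is that of a transcript of 2 exons) and ITGB5 neither word was present in the 3′ UTR searched, and no other annotated protein-coding transcript of these genes, of ITGB1 or of ITGB3 held the 7-base word in its 3′ UTR. A match describes the sequence and was not tested as a site of action.

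In control cells the integrin set was led by the laminin receptor chains and their common partner. ITGB1 (chr10:32900318-33005792, GRCh38, minus strand), the chain that pairs with ITGA2, ITGA3, ITGA5, ITGA6 and ITGAV, had 75.6, 88.0 and 60.1 FPKM in siCtrl numbers 1, 2 and 3 (74.5 ± 14.0, SD, n = 3). ITGA6 (chr2:172427354-172506459, plus strand) had 60.6, 69.8 and 59.4 FPKM (63.3 ± 5.69, SD, n = 3). ITGA3 (chr17:50055968-50090480, plus strand) had 59.9, 62.6 and 54.2 FPKM (58.9 ± 4.29, SD, n = 3). These 3 genes held 26.5%, 22.5% and 20.9% of the summed mean FPKM of the 10 genes, and the libraries of ITGB1 overlapped those of ITGA6, as those of ITGA6 overlapped those of ITGA3, so their order is not separated from the spread.

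A middle tier held receptor chains for fibronectin, vitronectin and collagen. ITGA5 (chr12:54395261-54419266, minus strand), the alpha chain of the main fibronectin receptor, had 31.7, 27.0 and 38.1 FPKM under siCtrl (32.3 ± 5.56, SD, n = 3). ITGB5 (chr3:124761948-124901418, minus strand), a partner of ITGAV on vitronectin, had 25.0, 30.5 and 30.6 FPKM (28.7 ± 3.17, SD, n = 3). ITGA5 stood 1.83-fold below ITGA3 without overlap of libraries, whereas ITGA5 and ITGB5 overlapped each other. ITGA2 (chr5:52989340-53094779, plus strand), the collagen-binding chain, had 13.2, 7.80 and 12.8 FPKM (11.3 ± 3.00, SD, n = 3), which is 2.55-fold below ITGB5 in the means and without overlap.

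The lower tier began with ITGAV (chr2:186590056-186680901, plus strand) at 6.97, 6.15 and 6.33 FPKM (6.48 ± 0.432, SD, n = 3). ITGB4 (chr17:75721328-75757818, plus strand), whose long tail binds plectin in the hemidesmosome, was at 3.72, 5.91 and 6.81 FPKM (5.48 ± 1.59, SD, n = 3). The libraries of these genes overlapped. ITGB4, which pairs with ITGA6 alone, had between 0.0613 and 0.115 times the FPKM of ITGA6 under siCtrl. ITGB3 (chr17:47253827-47313743, plus strand), the other well-known partner of ITGAV on vitronectin, had 0.537, 0.514 and 0.318 FPKM, a mean 12.0-fold below that of ITGB4. ITGB8 (chr7:20330702-20415754, plus strand), which with ITGAV binds latent TGF-beta, was lowest, with 0.124, 0.0824 and 0.131 FPKM, from 102 to 153 counts per library over all 6 libraries. Genes on the opposite strand overlap both, THCAT158 (mean of 0.120 FPKM) for ITGB3 and AC004130 (0.168 FPKM) for ITGB8, so their reads may not be told apart where strand was not used. ITGB5 was thus the most abundant of the beta chains that pair with ITGAV, after ITGB1, and the sum of ITGB3, ITGB5 and ITGB8 was 3.68, 5.05 and 4.90 times ITGAV under siCtrl.

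**Figure D1:**
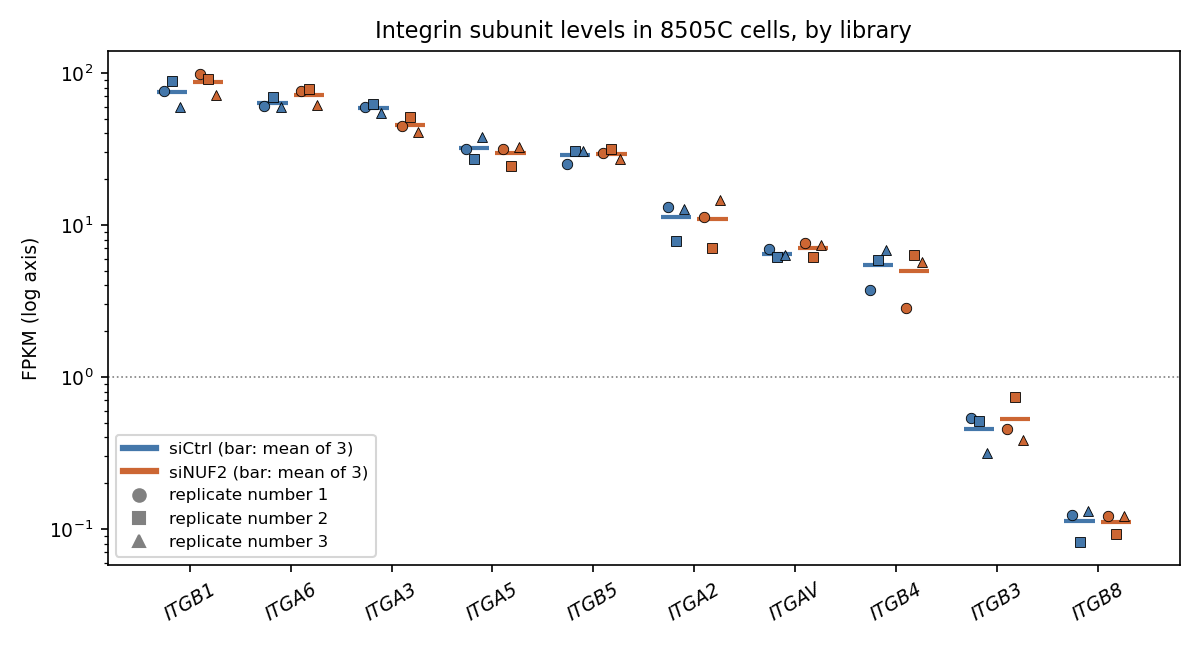
FPKM (log axis) of the 10 integrin genes in each library, ordered by their mean in siCtrl cells, with blue for siCtrl, orange for siNUF2, bars for the mean of 3 libraries, marker shapes for the replicate number and a dotted line at the mean FPKM of 1 used as the filter. ITGB1, ITGA6 and ITGA3 lie highest, ITGB3 and ITGB8 lie below 1 FPKM in every library, and siCtrl and siNUF2 libraries overlap for every gene but ITGA3.

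Of the other integrin subunits on the list, 15 were in the file and ITGAE and ITGA1 had a mean FPKM of at least 1. ITGAE, known from lymphocytes that adhere to epithelium, had 2.80, 3.39 and 3.67 FPKM under siCtrl and 2.86, 3.56 and 3.38 FPKM under siNUF2. ITGA1, a collagen-binding chain like ITGA2, had 0.843, 1.11 and 1.01 FPKM and 1.05, 1.22 and 1.16 FPKM. Neither passed the test between groups (adjusted p = 0.976 and 0.477 from edgeR). ITGB6, the epithelial partner of ITGAV, was at or below 0.0209 FPKM in all libraries.

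After NUF2 knockdown, the differences of the integrin genes were small. Of the 10 genes, 8 reached a mean of 1 FPKM across the libraries and entered edgeR's quasi-likelihood test of the counts, with Benjamini-Hochberg adjustment over the 11725 genes tested. Of these 8, 0 had an adjusted p under 0.05, where 468 of the 11725 genes (3.99%) did, 1.53% higher and 2.46% lower in siNUF2. By unadjusted p, 1 of the 8, ITGA3, was under 0.05, against 18.2% of all genes tested. DESeq2 and limma also called 0 of 8, where they called 972 and 383 of the 11725 genes. At such shares a count of 0 among 8 genes allows little to be read. Without the filter on FPKM, 0 of 10 were called (0.570% of all 32985 genes) and 1 of 10 was under an unadjusted 0.05 (8.54% of all genes). The median log2 fold change of the 8 genes was 0.02, and that of all genes tested was 0.01.

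ITGA3 had the smallest unadjusted p of the integrin genes. By non-overlap of the groups and by the test with the block, 1 of 8 did not exceed the share of all genes tested, both directions counted together. It had 59.9, 62.6 and 54.2 FPKM under siCtrl against 44.6, 51.5 and 41.1 FPKM under siNUF2, in the order of the replicate numbers. Every siNUF2 library lay below every siCtrl library, and the siNUF2 mean of 45.7 ± 5.29 (SD, n = 3) was 77.7% of the siCtrl mean (exact permutation test, two-sided, p = 0.1, the smallest that 3 against 3 can give). ITGA3 was 1 of 8 tested integrin genes whose groups did not overlap, where 13.4% of all genes tested did not overlap with siNUF2 lower and 23.9% in either direction. The log2 fold change was -0.34 (standard error 0.11, 95% interval from -0.60 to -0.08, adjusted p = 0.158 from edgeR). When the same test took the replicate number as a block, it was -0.35 (standard error 0.06, adjusted p = 0.0120), and ITGA3 became the 1 integrin gene past the threshold, where 14.5% of all genes tested were past it, 6.64% higher and 7.91% lower. Within replicate numbers 1, 2 and 3 the log2 difference in CPM (counts scaled to library size) was -0.40, -0.26 and -0.38, so ITGA3 was lower in 3 of 3 numbers. With the block but without the filter on FPKM, its adjusted p was 0.130. In the edgeR fits without the block that left out 1 library each, its log2 fold change stayed between -0.44 and -0.27.

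The laminin receptor chains ITGB1 and ITGA6 were above siCtrl in each number without passing the test, and ITGB4 was below it in 2 of 3 numbers, also without passing. ITGB1 had 98.2, 91.2 and 71.1 FPKM under siNUF2 beside 75.6, 88.0 and 60.1 under siCtrl. Its log2 fold change was 0.24 (95% interval from -0.14 to 0.62, adjusted p = 0.514 from edgeR), and 0.24 with an adjusted p of 0.0630 with the replicate block. ITGA6 had 76.2, 78.4 and 61.2 FPKM beside 60.6, 69.8 and 59.4. Its log2 fold change was 0.21 (95% interval from -0.07 to 0.49, adjusted p = 0.434 from edgeR), and 0.20 with an adjusted p of 0.103 with the block. For both genes the groups overlapped, and the within-number differences ran from 0.08 to 0.40 for ITGB1 and from 0.07 to 0.35 for ITGA6 on the log2 scale. ITGB4 went from a mean of 5.48 to 4.95 ± 1.84 FPKM (SD, n = 3), with a log2 fold change of -0.12 and the widest interval of the 8 genes, from -0.86 to 0.61.

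Receptors for fibronectin, collagen and RGD ligands had values on either side of no change. ITGA5 had 31.5, 24.6 and 32.7 FPKM under siNUF2 and a log2 fold change of -0.10 (95% interval from -0.46 to 0.25). ITGA2 had 11.3, 7.10 and 14.5 FPKM and a log2 fold change of -0.02 (95% interval from -0.65 to 0.62). ITGAV had 7.62, 6.13 and 7.34 FPKM and a log2 fold change of 0.14 (95% interval from -0.12 to 0.39). For these 3 genes the siCtrl and siNUF2 libraries overlapped. ITGB5 had 29.8, 31.5 and 27.2 FPKM and a log2 fold change of 0.06 (95% interval from -0.20 to 0.32), so that a change of ITGB5 above 1.25-fold in either direction lay outside the interval. ITGB3 and ITGB8 did not reach the filter. ITGB3 had 0.454, 0.738 and 0.382 FPKM and ITGB8 had 0.121, 0.0924 and 0.122 FPKM under siNUF2, and without the filter their log2 fold changes were 0.22 (95% interval from -0.56 to 1.01) and 0.02 (95% interval from -0.71 to 0.74) in edgeR.

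**Figure D2:**
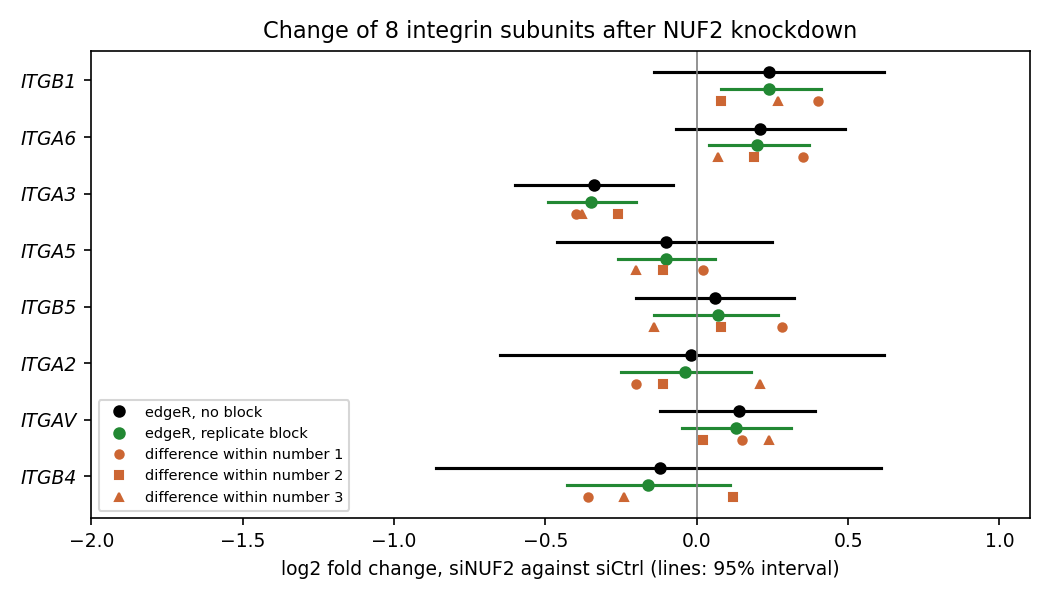
Log2 fold change of siNUF2 against siCtrl (horizontal axis) for the 8 integrin genes tested, with the 95% interval from edgeR without the block (black) and with the replicate block (green), and the difference of log2 CPM within each replicate number (orange). The interval of ITGA3 lies below 0 in both fits, and those of ITGB1 and ITGA6 lie above 0 with the block only.

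The balance of known partners at the RNA level was compared as a ratio of FPKM in each library. The ratio of ITGB1 to the sum of its 5 alpha partners was 0.439, 0.508 and 0.352 under siCtrl and 0.573, 0.544 and 0.453 under siNUF2. It was higher in siNUF2 in each of the 3 numbers, while the groups overlapped (exact permutation test, two-sided, p = 0.2, adjusted p = 0.6 over 3 ratios). The ratio of ITGB4 to ITGA6 was 0.0613, 0.0847 and 0.115 under siCtrl and 0.0374, 0.0804 and 0.0930 under siNUF2, lower in each number and overlapping between groups (exact permutation p = 0.5, adjusted p = 0.75). The sum of ITGB3, ITGB5 and ITGB8 over ITGAV was 3.99, 5.28 and 3.78 under siNUF2, with overlap as well (exact permutation p = 1).

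In the fit that held both the siRNA and the replicate number, 4 of the 8 integrin genes passed for the number and 1 for the siRNA. Over all genes tested the order was the reverse, with 7.60% past the threshold for the number and 14.5% for the siRNA. The replicate number was tested for each gene with both of its coefficients together in edgeR's quasi-likelihood test, beside the siRNA as a covariate. Of the 8 genes, ITGA2, ITGB4, ITGB1 and ITGA5 had an adjusted p under 0.05, where 891 of the 11725 genes (7.60%) did. All 8 had a mean of at least 5 FPKM. With the filter at that level, the same 4 passed, where 11.1% of the 6542 genes did. By unadjusted p, 6 of the 8 were under 0.05, against 27.1% of all genes tested. Libraries with the same number in both groups deviated together from their group means across the genes tested (r from 0.344 to 0.446, and from -0.263 to -0.141 for libraries with other numbers). What a number shares is not given in the sources used here.

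ITGA2 was low in number 2. Its FPKM in that number was 7.80 in siCtrl and 7.10 in siNUF2, against 11.3 to 14.5 in the other 4 libraries. The fitted log2 difference of number 2 from number 1 was -0.71, and the adjusted p for the number was 0.0124 from edgeR. ITGA5 was low in number 2 as well, with 27.0 and 24.6 FPKM against 31.5 to 38.1 in the other libraries (log2 difference -0.28 from number 1, adjusted p = 0.0418 from edgeR).

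ITGB4 was low in number 1, with 3.72 FPKM in siCtrl and 2.85 in siNUF2, against 5.69 to 6.81 in numbers 2 and 3. Its fitted log2 differences from number 1 were 0.92 for number 2 and 0.94 for number 3 (adjusted p = 0.0166 from edgeR). ITGB4 overlaps GALK1 on the opposite strand in the file, and whether the counting used strand is not given. GALK1 had 5.74, 7.57 and 6.87 FPKM under siCtrl and 5.90, 9.28 and 6.56 under siNUF2 (adjusted p for the number 0.134 from edgeR). The fibrillar collagen gene COL1A2 was listed at 0 in both libraries of number 1 and between 0.701 and 1.15 FPKM in the others, and its part in the values of ITGB4 was not tested. In bulk RNA, fewer cells of a type and less RNA per cell cannot be told apart.

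ITGB1 was low in number 3, with 60.1 and 71.1 FPKM against 75.6 to 98.2 in the other libraries (log2 difference -0.39 from number 1, adjusted p = 0.0381 from edgeR). ITGA3 and ITGA6 were lowest in number 3 within each group, at 54.2 and 41.1 FPKM and at 59.4 and 61.2 FPKM, without passing the test (adjusted p = 0.129 and 0.138 from edgeR). ITGAV was lowest in number 2 (6.15 and 6.13 FPKM, adjusted p = 0.263) and ITGB5 had no number outside the range of the others (adjusted p = 0.444 from edgeR). Among the 8 genes, 5 had both libraries of 1 number outside the range of the other 4 libraries, where 44.6% of all genes tested did. The numbers stood in the same order in both groups for ITGA3, ITGA5, ITGA6 and ITGAV, 4 of 8, where 33.6% of all genes tested had the same order. ITGB3, lowest in number 3 at 0.318 and 0.382 FPKM, and ITGB8, lowest in number 2 at 0.0824 and 0.0924 FPKM, showed the same form below the filter.

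The calls for ITGA2 and ITGB4 were kept by limma on log2(FPKM + 1), and those for ITGA5 and ITGB1 were not (adjusted p = 0.0627 and 0.0636). Of all genes tested, limma called 5.8% for the number. DESeq2 kept all 4 calls and called 18.1% of all genes tested. Without the filter, 0 of 32985 genes had an adjusted p under 0.05 for the number in edgeR (3676 at an unadjusted p under 0.05), and the adjusted p of the 4 genes was between 0.248 and 0.327. Leaving out siCtrl library 3, siNUF2 library 2 or siNUF2 library 3 left 2 of the 4 calls. In these fits the share of all genes tested that passed was 5.86%, 5.76% and 5.17%, against 7.60% with all libraries.

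**Figure D3:**
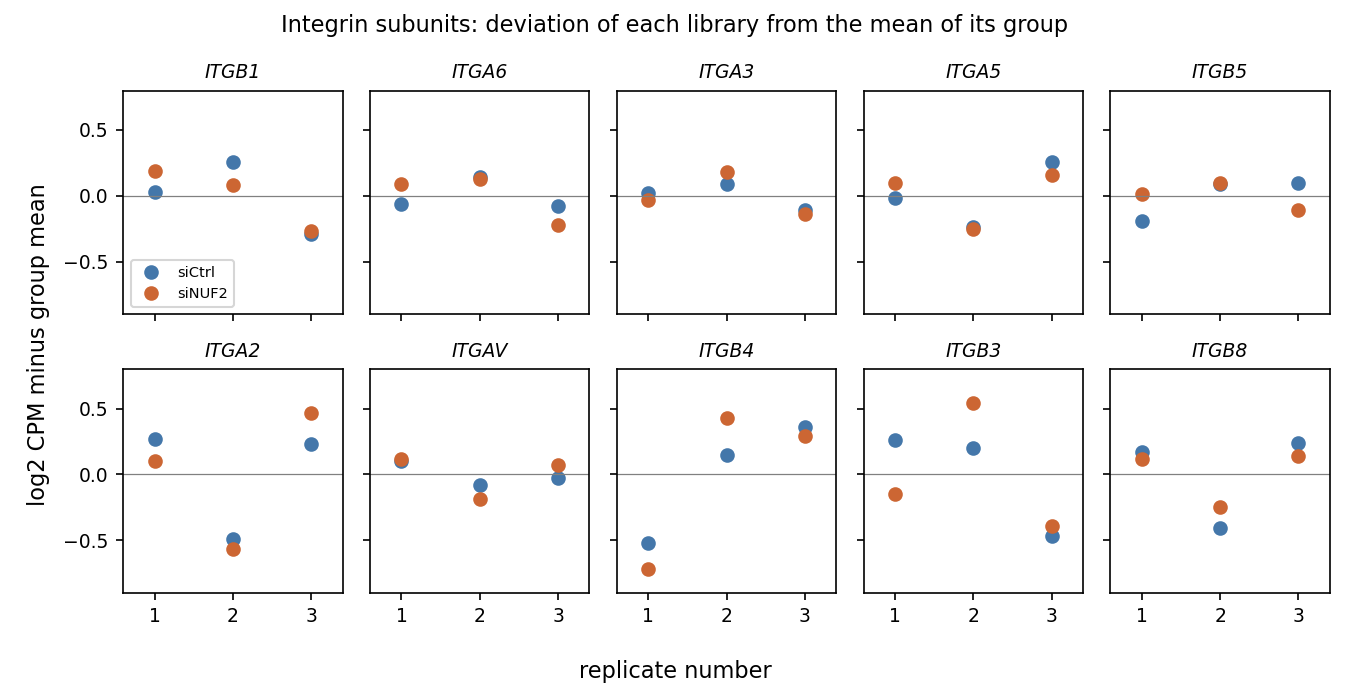
Deviation of each library from the mean of its own group in log2 CPM (vertical axis) against the replicate number (horizontal axis), 1 panel for each integrin gene, with siCtrl in blue and siNUF2 in orange. In both groups ITGA2 and ITGA5 lie lowest in number 2, ITGB4 in number 1 and ITGB1 in number 3.

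The ligand lists were tested for the replicate number too, and 8 of 9 laminin chains, 6 of 10 RGD ligands and 3 of 9 collagens passed. Of 12 laminin chain genes on the list, 11 were in the file and 9 were tested. The 8 laminin chains that passed were 88.9% of those tested, against 7.60% of all genes tested. For siNUF2 against siCtrl, 0 of the 9 passed without the block and 3 with it, where 3.99% and 14.5% of all genes tested did. LAMA1, a chain of embryonic basement membranes, was low in number 2, with 3.35 and 3.77 FPKM in siCtrl and siNUF2 against 5.78 to 7.38 in the other libraries (log2 difference -0.89 from number 1, adjusted p = 0.00335 from edgeR), as ITGA2 and ITGA5 were.

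LAMA4, a chain of vessel and mesenchymal basement membranes, was low in number 3, with 1.71 and 1.93 FPKM against 3.21 to 4.49 (log2 difference -1.24 from number 1, adjusted p = 0.00263 from edgeR). LAMB1 (23.8 and 23.0 FPKM) and LAMC1 (17.3 and 18.6 FPKM), the chains that most laminins share, were lowest in number 3 as well, where ITGB1 was. LAMA3 was also lowest in number 3, at 1.11 and 1.07 FPKM, and highest in number 2, at 2.28 and 2.57 FPKM. LAMB3, a chain of the laminin that anchors epithelium at hemidesmosomes, was high in number 3, at 36.4 and 26.1 FPKM, against 8.60 to 22.0 in the other libraries (adjusted p = 0.0186 from edgeR). Within each group it was lowest in number 2, at 19.2 and 8.60 FPKM, with overlap between numbers 1 and 2. LAMA5, a chain of most adult basement membranes and the most abundant laminin chain here, was lowest in number 1, at 36.7 and 18.5 FPKM. Of the 8 laminin chains past the test, 1 was lowest in number 1, 3 in number 2 and 4 in number 3.

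**Figure D4:**
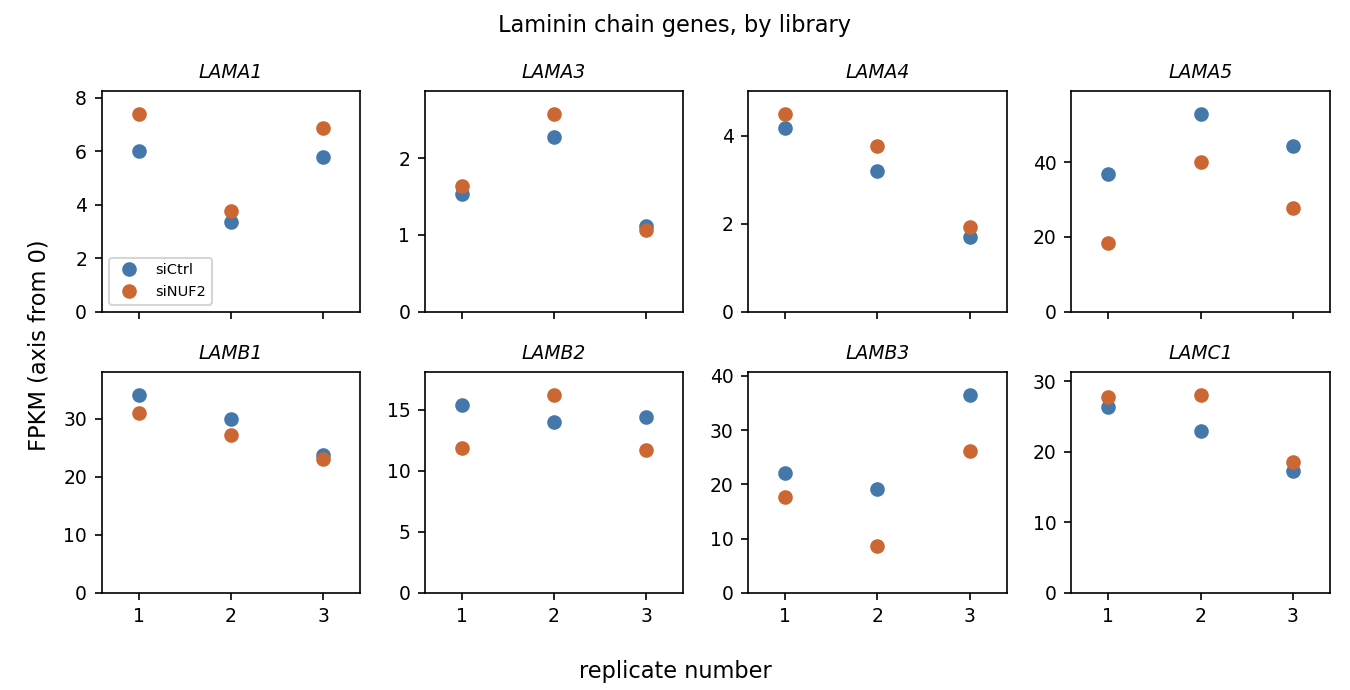
FPKM (vertical axis, from 0) of 8 laminin chain genes against the replicate number (horizontal axis), with siCtrl in blue and siNUF2 in orange. LAMA1 and LAMB3 are lowest in number 2 in both groups and LAMA4, LAMB1 and LAMC1 in number 3, while LAMA5 and LAMB3 lie lower in siNUF2 in each number.

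Genes of the matrix and genes of adhesion inside the cell were also counted as groups, and the difference between these groups was not tested. Over the laminin, RGD ligand and collagen lists together, 17 of 28 tested genes (60.7%) passed the test for the number, with the lowest mean FPKM in number 1 for 6 of them, in number 2 for 5 and in number 3 for 6. Over the lists of activators and actin linkers, adhesion signalling, inhibitors and traffic, 3 of 49 (6.12%) did. The share over all genes tested was 7.60%, near that of these lists inside the cell. This pooling of lists was chosen after their values were seen. FERMT1, the kindlin of epithelia, was one of the 3, with 4.12 and 3.83 FPKM in number 2 against 5.67 to 7.72 in the other libraries (adjusted p = 0.0165 from edgeR), and TNS3 and NEDD9 were the others. Among membrane partners, 3 of 8 passed, of which PLAUR, the urokinase receptor, and the tetraspanin CD9 were lowest in numbers 2 and 1, and CAV1 was highest in number 2. The marker genes CDH5 of endothelium and KRT19 of epithelium varied by number too. CDH5 had 1.87 and 2.72 FPKM in number 2 against 0.496 to 0.762 in the others (adjusted p = 0.0109 from edgeR). The 4 endothelial and platelet genes summed to between 1.13 and 2.51 FPKM under siCtrl and between 0.781 and 3.49 under siNUF2, and their part in the values of the integrins was not tested.

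After NUF2 knockdown, 3 of the 91 tested genes on the other adhesion lists, the ligands THBS1, COL4A1 and COL4A2, had an adjusted p under 0.05, where 3.99% of all genes tested did. With the replicate block 13 of the 91 did, where 14.5% of all genes tested did, so both counts lay near the share over all genes. THBS1, a matrix protein that binds integrins and CD47 and activates TGF-beta, fell from 53.4, 63.7 and 60.0 FPKM under siCtrl to 34.9, 32.2 and 34.7 under siNUF2 (log2 fold change -0.78, standard error 0.10, adjusted p = 0.00693 from edgeR). COL4A1 and COL4A2, neighbouring genes whose chains form the main collagen of basement membranes, rose together. COL4A1 had 2.52, 3.05 and 3.49 FPKM under siCtrl and 5.32, 4.73 and 5.14 under siNUF2 (log2 fold change 0.76, standard error 0.13, adjusted p = 0.0191 from edgeR). COL4A2 had 5.78, 6.33 and 6.57 FPKM and 8.39, 8.09 and 7.94 FPKM (log2 fold change 0.41, standard error 0.09, adjusted p = 0.0491 from edgeR). For all 3 genes the groups did not overlap. The 3′ UTRs of THBS1, which fell, and of COL4A2, which rose, each hold 1 TATGGAA, and that of COL4A1 holds 0, where 16.1% of tested genes with a 3′ UTR hold the word. The call of COL4A2 was lost in each of the 6 fits that left out 1 library, and that of COL4A1 in 4 of them, while their log2 fold changes stayed between 0.35 and 0.45 and between 0.65 and 0.88.

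With the replicate block, ligands that vary with the number were called as well. CCN2 and CCN1, matrix proteins that bind ITGAV and ITGA6 receptors, went in opposite directions. CCN2 had 201, 244 and 353 FPKM under siCtrl and 104, 138 and 220 under siNUF2 (log2 fold change -0.80, adjusted p = 0.00104 with the block and 0.222 without it, edgeR). CCN1 had 221, 310 and 356 FPKM and 332, 444 and 518 FPKM (log2 fold change 0.57, adjusted p = 0.00115 with the block and 0.211 without it, edgeR). Each was lowest in number 1 and highest in number 3 in both groups, and each holds 1 TATGGAA in its 3′ UTR. Of the laminins, LAMA5 (log2 fold change -0.67, adjusted p = 0.00859) and LAMB3 (-0.63, adjusted p = 0.0290) were lower and LAMA1 (0.26, adjusted p = 0.0455) higher with the block in edgeR.

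Inside the cell, 0 of 14 tested activators and actin linkers and 0 of 15 tested traffic genes passed with or without the block. Of all genes tested, 3.99% passed without the block and 14.5% with it. Lists of this size allow little to be read from a count of 0 in either fit. The most abundant of these genes, ACTN4 and ZYX among the linkers and RAB5C and ARF6 in traffic, had log2 fold changes of -0.08, -0.26, 0.12 and -0.13. Among signalling genes, with the block, CRKL was lower (log2 fold change -0.33, adjusted p = 0.0310) and RAPGEF1, which is bound by CRK adaptors and activates the GTPase RAP upstream of talin, was higher (0.48, adjusted p = 0.0143), and PXN and CRK had log2 fold changes of -0.01 and 0.01. For FLNA, a filamin that competes with talin for beta tails, the log2 fold change was -0.22 (adjusted p = 0.0570 with the block, edgeR). In the hemidesmosome list, DST, which tethers ITGB4 to keratin, was lower with the block (-0.28, adjusted p = 0.0347) and COL17A1 higher (0.59, adjusted p = 0.0425), and CD151 and PLEC had log2 fold changes of 0.00 and -0.11. The membrane partners CD63 and BSG had log2 fold changes of -0.10 and 0.03, and 0 of 8 on their list passed with or without the block. The collagens COL5A1 and COL6A1, the most abundant on their list, had log2 fold changes of -0.26 and -0.06.

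**Figure D5:**
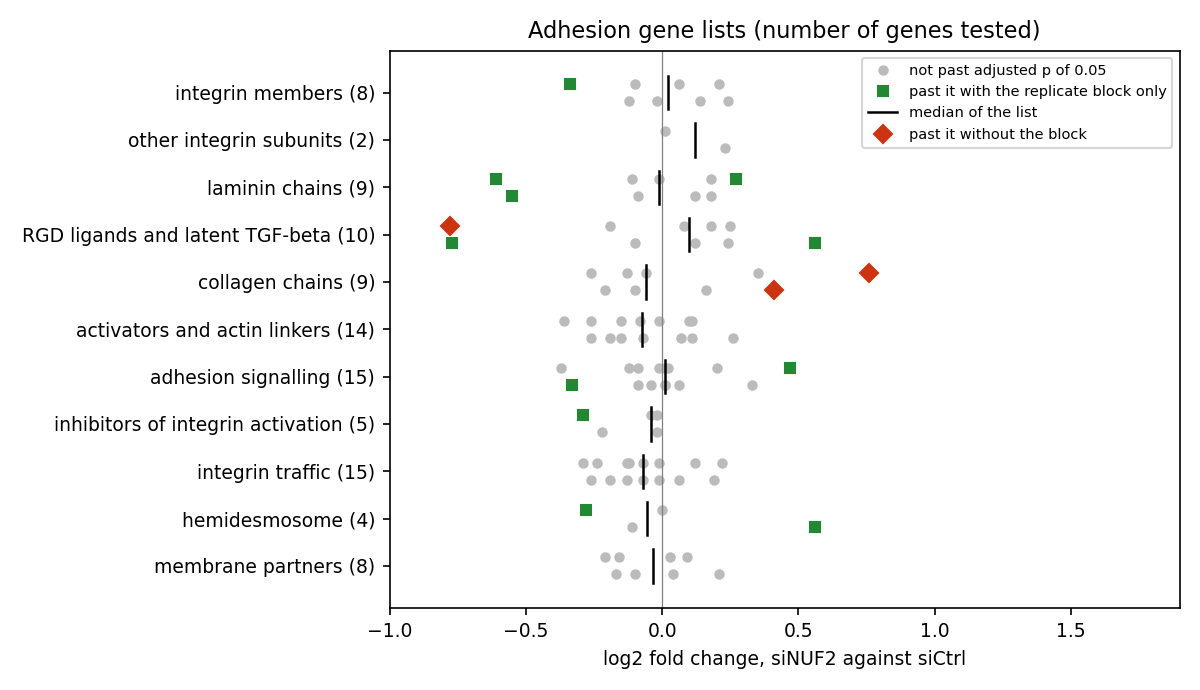
Log2 fold change of siNUF2 against siCtrl from edgeR without the block (horizontal axis) for the tested genes of each adhesion list, with the number of genes in brackets, black lines at the median of each list, red diamonds for genes with an adjusted p under 0.05 and green squares for those under 0.05 with the replicate block only. The medians of the lists lie between -0.07 and 0.12, and the 3 red genes are THBS1, COL4A2 and COL4A1.

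Likeness of pattern was described with Pearson's r of log2 CPM over the 6 libraries, among the 11725 genes tested. The genes most like ITGB1 were ZNF473 (r = 0.9884), IPP (r = 0.9881) and the mitochondrial gene MT-TT (r = 0.9869). Those most like ITGA3, the integrin gene with the smallest unadjusted p, were DST (r = 0.9920), TTC13 (r = 0.9900) and ZNF620 (r = 0.9896). The libraries share siRNA and replicate number, and with 6 points among so many genes such values carry no test. DST had 8.39, 8.41 and 7.48 FPKM under siCtrl and 6.35, 7.30 and 6.12 under siNUF2, and its 3′ UTR holds 3 TATGGAA, where that of ITGA3 holds 0.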

How the data were processed

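Per the labels and methods, fastp was used for trimming, HISAT2 for alignment (GRCh38) and StringTie for expression. Versions, annotation, strand setting and counting tool are not given in the sources used here. The authors deposited FPKM and raw counts per gene, and all 12 value columns were used.

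The 11725 of 32985 genes whose mean FPKM was 1 or more were tested on the deposited counts with edgeR 4.0.16 (quasi-likelihood, TMM, Benjamini-Hochberg, R 4.3.3). Standard errors and 95% intervals came from the fitted F statistic. The replicate number was tested with 2 degrees of freedom. The values given first are without block, and numbers were taken to pair the libraries because all 3 same-numbered pairs had r over 0.1 (from 0.344 to 0.446 across genes). Chi-square per degree of freedom between replicates was 54.7 to 77.7, so no library was a copy. Alternatives used DESeq2 1.42.0 and limma 3.58.1 on log2(FPKM + 1) or log2(FPKM + 0.1). The code was tested on simulated data. 3′ UTRs of at least 50 bases came from GENCODE release 44.

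The members and lists were chosen with earlier results of these data known. The genes named are the 10 integrin genes, NUF2, other integrins with a mean FPKM of at least 1, list genes past the threshold with or without the block, the 2 most abundant per list and the 3 most like ITGB1 and ITGA3. GALK1, COL1A2, ITGB2, ITGB6, ITGA2B and list genes named only for the replicate number were added after their values were seen. ITGA8, LAMB4, NPNT and TSHR were not analysed here, and a few genes counted within the lists are not reported here by name. With counts of this depth, precision is limited by the 3 libraries per group.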

Additional observations from a re-analysis of the deposited data

How the results depend on the processing

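The log2 fold change of NUF2 stayed between -3.14 and -2.90 without 1 library, and its adjusted p was above 0.05 only in the fit without filter and with the replicate block, added after seeing the data (-2.99, adjusted p = 0.0617). The number of integrin genes past the threshold for siNUF2 was 0 without the block and 1 (ITGA3) with the replicate block. It was 0 in every other setting, each left-out library included (0 to 0). The number of other adhesion genes past it was 3 without the block, 13 with the replicate block, 5 with DESeq2, 1 without the filter, 1 with a mean FPKM of at least 5, 0 with the F-test on log2(FPKM + 1), 0 without the filter and with the block, and 1 to 2 without 1 library. Over all genes the block moved the count from 468 to 1705 and DESeq2 to 972, and the F-test gave 78. For the replicate number, the 4 integrin genes became 0 without the filter, 2 with limma and 2 to 4 without 1 library. Over all genes tested, 7.60% passed for the number, which became 0% without the filter, 5.8% with limma and 5.17% to 11% without 1 library. In fits without 1 library, some small log2 fold changes of siNUF2 against siCtrl changed sign: ITGA2 (-0.27 to 0.21), ITGA5 (-0.22 to 0.04), ITGB4 (-0.34 to 0.16) and ITGB5 (-0.03 to 0.12). Overlapping neighbours in the order of control levels numbered 4, and 2 to 4 without 1 siCtrl library. The log2 change of the ratio of summed ITGB3, ITGB5 and ITGB8 to ITGAV (-0.06) lay between -0.23 and 0.03. The causes were not tested. With 3 libraries a group and no block, intervals for the less even genes (ITGA2, ITGB4) leave changes of 1.5-fold in either direction within them. The interval of ITGB1 (up to 1.54-fold) leaves such a rise, and that of ITGA3 (down to 0.658-fold) such a fall. A fit without 1 library has a replicate number that rests on a lone library, assumed to vary like the rest.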
